A study of Homo sapiens and Mus musculus with 25 samples.

Results

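The 3′ stretch of hFAST described here runs from nucleotide 324 to nucleotide 534 of the deposited profile and holds 211 of its 547 nucleotides. hFAST is a human long noncoding RNA, and FAST is listed by RefSeq as a synonym of FOXD3-AS1. The limits of the stretch were chosen from measured values, namely a fold of the whole RNA made with the SHAPE reactivities and the read depth of the NAI library. Its last 149 nucleotides, 386 to 534, are the high-depth part, where NAI depth is highest against DMSO, and the 62 nucleotides before them (324 to 385) are called the 5′ part. Comparisons are with the 314 remaining nucleotides of hFAST that had at least 1000 reads in each library, a depth that all 211 members reached. Just outside the limits, nucleotide 323 had 3756 NAI reads and nucleotide 535 had 1127. Just inside them, nucleotide 324 had 3751 and nucleotide 534 had 68758.

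The profile came from 3 SHAPE-MaP libraries of H9 (an established human embryonic stem cell line), with 1 library per treatment and hence no replicates. The NAI library was made from cells incubated with NAI, an acylating SHAPE reagent, at 100 mM and 37 °C for 10 min, and the DMSO library from cells that received the solvent alone. For the denatured control (DC), RNA was heated to 95 °C in 50% formamide before it was modified. The deposited columns are headed bg, rx and dc, read here as background, reagent and denatured, and only dc matches a sample by name. The others were taken as DMSO and NAI from the protocol wording, so directions are given for "the library labelled NAI".

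SHAPE reagents react with the ribose where a nucleotide is flexible. Reverse transcriptase, supplied with manganese, reads through such adducts and leaves a mutation in the cDNA. In a folded RNA, nucleotides in loops and joints are usually more reactive than those in helices, while heat and formamide open the helices so that the denatured control reports how each nucleotide reacts when it is free. The solvent library gives the errors that occur without reagent, including errors at modified bases and at hard templates. Long noncoding RNAs made by RNA polymerase II usually end in a poly(A) tail added a short way downstream of a hexamer, most often AATAAA.

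The stretch folded from sequence alone, without reactivities, into 7 stems, each an unbroken stack of 4 bp or more whose pairs had an average probability of 0.8 or above. It is printed 5′ to 3′, with U as T, the arms of these stems in capitals and everything else in lower case, because the stems and the tail are the landmarks for all values that follow.

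Nucleotides 324 to 534: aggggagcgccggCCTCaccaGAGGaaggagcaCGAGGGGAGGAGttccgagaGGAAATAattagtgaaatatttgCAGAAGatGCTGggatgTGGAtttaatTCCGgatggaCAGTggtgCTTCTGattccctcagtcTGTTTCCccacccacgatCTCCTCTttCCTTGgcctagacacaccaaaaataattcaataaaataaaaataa

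The structure of lowest free energy (-55.0 kcal/mol) had 53 bp, so that 106 nucleotides were paired and 105 unpaired. Its parts are a short hairpin near the 5′ edge, an outer helix of 3 stems and an inner rod of 3 stems that ends in a loop of 6 nt. Behind them lies a run of 36 unpaired nucleotides that reaches the 3′ edge. These are predictions from the printed letters and hold no measurement.

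Stem 1 is the short hairpin and has 4 bp around a loop of 4 nt. It is printed because nucleotide 336, with the highest NAI rate of the stretch, lies directly 5′ of it.

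Stem 1 with its loop, 337 to 348: CCTCaccaGAGG

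The outer helix pairs a purine-rich side with a pyrimidine-rich side. Stem 2 joins nucleotides 357 to 361 with 490 to 494, stem 3 joins 362 to 368 with 481 to 487, and stem 4 joins 377 to 383 with 463 to 469. Purines made up 89.5% of the 19 nucleotides in the 5′ arms and 10.5% of the 19 nucleotides in the 3′ arms. Both sides are printed with the arms in capitals and the nucleotides between them in lower case.

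Outer 5′ side, 357 to 383: CGAGGGGAGGAGttccgagaGGAAATA

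Outer 3′ side, 463 to 494: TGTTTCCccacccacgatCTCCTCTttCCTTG

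The inner rod runs from nucleotide 400 to 450. Stem 5 (400 to 405 with 445 to 450) carries stem 6 (408 to 411 with 437 to 440), which carries stem 7 (417 to 420 with 427 to 430). The closing stem and the hairpin at the tip are shown because the largest ratio of DC to DMSO lies in the loop of that hairpin.

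Inner rod, arms of stem 5 in capitals: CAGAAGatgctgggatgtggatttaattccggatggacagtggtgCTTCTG

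Stem 7 with its loop, 417 to 430: TGGAtttaatTCCG

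The inner rod held under most of the fold settings tried. Stems 5, 6 and 7 had mean pairing probabilities of 0.993, 0.977 and 0.989 in the stretch folded alone. They stayed at or above 0.8 at 25 °C, without energies for dangling ends, with 10 nt more on each side and in the fold of whole hFAST. With the Andronescu energy parameters, stems 5 and 6 fell to 0.243 and 0.248 while stem 7 had 0.811. When only the high-depth part was folded, all 3 were low (0.0725, 0.0718 and 0.354), and none of its 39 bp was among the 53 bp of the whole stretch.

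The outer helix did not hold between settings. Stems 2, 3 and 4 had probabilities of 0.866, 0.833 and 0.893 in the stretch alone, and reached 0.8 again under 1 of 5 other settings, the lower temperature. In whole hFAST they had 0.378, 0.364 and 0.595, although all 50 bp that this fold placed inside the stretch were shared with the fold of the stretch alone. With 10 nt more on each side they had 0.0002, 0.0022 and 0.0186. There the 3′ arms found other partners, since nucleotides 325 to 329 paired with 482 to 486 (0.687) and 360 to 366 with 465 to 471 (0.706). A stem across the 5′ edge joined 316 to 319 with 494 to 497 (0.998). In whole hFAST, 10 bp crossed the edges of the stretch, among them a stem of 102 to 105 with 325 to 328 (0.623) and one of 8 to 11 with 500 to 503 (0.847). Stem 1 was at or above 0.8 under 4 of 5 settings, and had 0.452 without dangling-end energies.

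**Figure D1:**
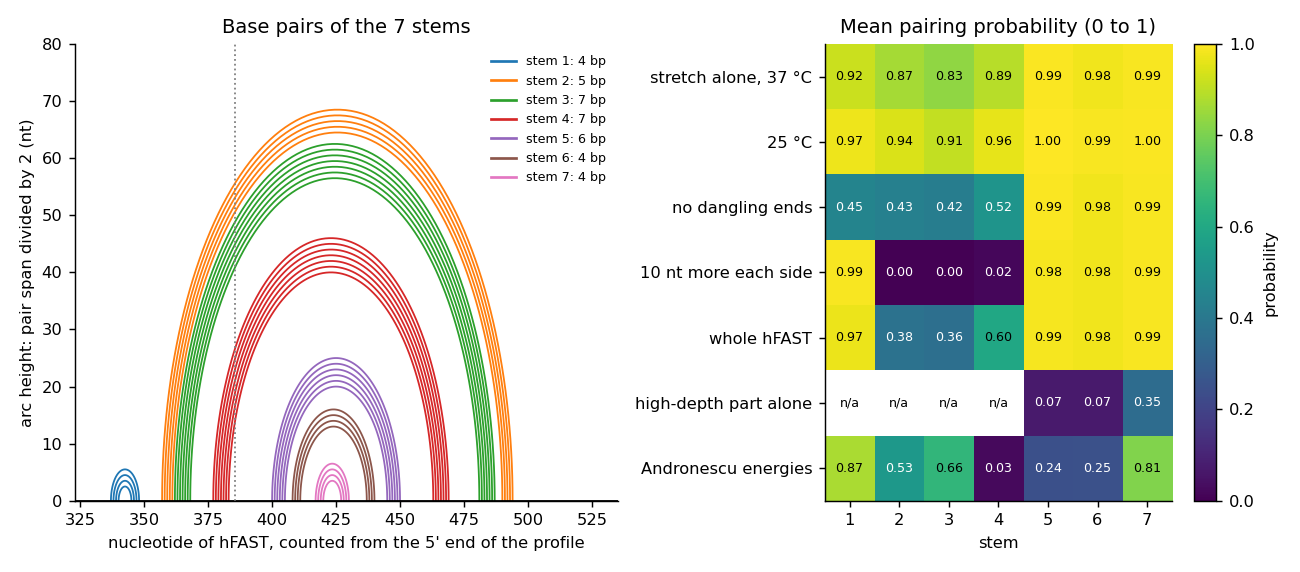
Left, base pairs of the 7 stems as arcs over the nucleotide number (x axis; arc height is the span of the pair divided by 2, in nt; the dotted line is the start of the high-depth part). Right, mean pairing probability of each stem under 7 fold settings (n/a: an arm lies outside the folded part); stems 2 to 4 reach 0.8 only in the stretch folded alone at 37 °C and at 25 °C.

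Read depth was higher at nucleotide 534 than at nucleotide 324 in all 3 libraries. Between nucleotides 324 and 385 it went from 14017 to 13858 in DMSO and from 15545 to 14378 in DC. The NAI library broke from the other 2 at 4 places. The ratio of NAI to DMSO depth was 0.268 to 0.269 at nucleotides 324 to 326, 0.950 to 0.984 at 327 to 334 and 0.248 at nucleotide 335. It was 0.964 to 1.27 at 336 to 385 and 1.97 to 2.30 in the high-depth part. The ratio of DC to DMSO depth stayed between 1.01 and 1.12 over the whole stretch. From nucleotide 385 to 386, depth went from 17542 to 33390 reads in NAI, from 13858 to 16091 in DMSO and from 14378 to 16613 in DC. All libraries ended together: from nucleotide 534 to 535 depth fell from 68758 to 1127 in NAI, from 30944 to 1365 in DMSO and from 31306 to 1429 in DC. Reads from these PCR products carry no molecular identifiers that the labels mention, so the 95% Wilson intervals given in parentheses cover counting error only.

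**Figure D2:**
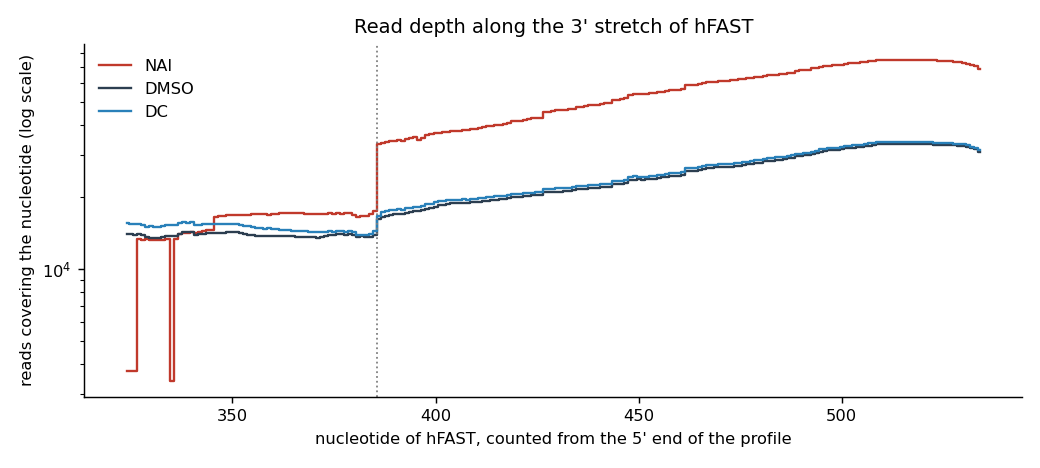
Reads covering each nucleotide (y axis, log scale) against nucleotide number (x axis) in the 3 libraries, 1 line each; the dotted line is the start of the high-depth part. The DMSO and DC lines run side by side, while the NAI line starts below them, drops again at 335 and lies at 1.97 to 2.30 times DMSO from 386 on.

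Nucleotide 336, the second of 2 neighbouring G nucleotides before stem 1, had the highest NAI rate of the stretch. In the printed letters it is the capital.

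Nucleotides 324 to 340: aggggagcgccgGcctc

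Its mutation rate was 1.05% (0.895 to 1.24%) in DMSO, 1.18% (1.02 to 1.36%) in DC and 74.4% (73.6 to 75.1%) in the library labelled NAI. In that library 9878 reads were mutated there and 3403 were not, and the depth at the neighbouring nucleotide 335 was 3409, close to the unmutated number alone. Depth rose by 9543 reads at nucleotide 327. Between these steps, at nucleotides 327 to 334, the library labelled NAI had rates of 0.0377 to 0.204% (median 0.0641%), against medians of 0.739% in DMSO and 0.601% in DC. All 8 of these nucleotides were below both other libraries. What links the depth steps and the rates at 327 to 336 was not tested.

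**Figure D3:**
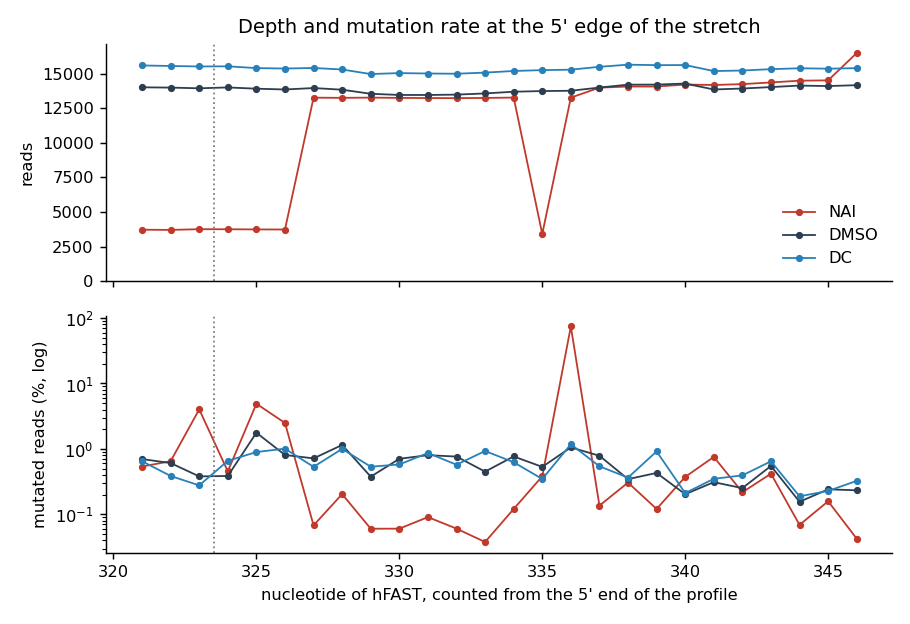
Depth in reads (top) and mutated reads in percent on a log scale (bottom) against nucleotide number at the 5′ edge of the stretch (dotted line), with 1 point per nucleotide and library. The NAI points jump at 327, 335 and 336, where 74.4% of NAI reads were mutated, while DMSO and DC change little.

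The next highest NAI rates lay in predicted pairs of the outer helix. Nucleotide 486, a C in the 3′ arm of stem 3 that pairs with nucleotide 363, had 5.17% (4.92 to 5.43%) in DMSO, 4.59% (4.36 to 4.83%) in DC and 31.7% (31.4 to 32.1%) in NAI. It has no deposited reactivity. Nucleotide 359, an A in the 5′ arm of stem 2 that pairs with nucleotide 492, had 0.131% (0.0827 to 0.207%) in DMSO, 0.359% (0.274 to 0.469%) in DC and 12.1% (11.6 to 12.6%) in NAI. Both stand apart from their arms, since the median NAI rate was 0.462% in the 3′ arm of stem 3 and 0.655% in the 5′ arm of stem 2. The others among the 8 highest NAI rates were at nucleotide 325 (4.89%), 326 (2.49%), 357 (1.74%), 456 (1.03%) and 475 (1.02%). Of these, 325 and 326 stand where only 3739 and 3733 NAI reads were left, and 456 and 475 were no higher in NAI than in DMSO (1.24% and 1.12%). So the 3 nucleotides with NAI rates above 10% are 1 unpaired G and 2 nucleotides in predicted pairs. Those pairs belong to stems 2 and 3, which did not hold between fold settings.

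High error without reagent marked other nucleotides. Nucleotide 507, a C in the unpaired run at the 3′ edge, was mutated in 3.65% of DMSO reads (3.45 to 3.85%), 3.70% of DC reads (3.50 to 3.90%) and 0.658% of NAI reads (0.603 to 0.719%). Nucleotide 445, a C that closes stem 5 from the inside, had 1.65% in DMSO (1.49 to 1.83%), 1.50% in DC (1.36 to 1.67%) and 0.184% in NAI (0.151 to 0.225%). At nucleotide 360, a G of stem 2, the rates were 1.55% in DMSO, 1.32% in DC and 0.655% in NAI. DMSO and DC shared these rates and the library labelled NAI did not. Together with 486 and 325 they are the 5 highest DMSO rates of the stretch.

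Median rates were lowest in the library labelled NAI. The median rate over the stretch was 0.143% in NAI, 0.246% in DMSO and 0.348% in DC, with the same order in the 5′ part (0.230%, 0.407% and 0.423%), in the high-depth part (0.133%, 0.213% and 0.320%) and at the remaining nucleotides (0.213%, 0.381% and 0.397%). By Fisher's exact test on mutated and unmutated reads with Benjamini-Hochberg adjustment over the whole table, NAI was higher than DMSO at 14 of the 211 nucleotides and lower at 77. Over the whole table these shares were 5.68% and 33.7% of 546. Against DC, NAI was higher at 26 and lower at 99, where the table had 9.52% and 45.1%. The limits of the stretch were set with these rates in view, so nothing is read from those counts. The median log2 ratio over 525 nucleotides was -0.50 for NAI to DMSO and -0.64 for NAI to DC. With that shift taken out, 29 nucleotides of the stretch were at least 2-fold higher in NAI than in DMSO and 33 at least 2-fold lower (table: 11.8% and 20.6% of 525). Against DC the centred counts were 37 higher and 44 lower (17.1% and 25.1%). These counts use no test and have a fold minimum as well as the centring, so the part of each in the change from the tested counts cannot be told apart. Lower nucleotides outnumbered higher ones in both, as they did over the whole table, and nothing is read from the centred counts either.

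**Figure D4:**
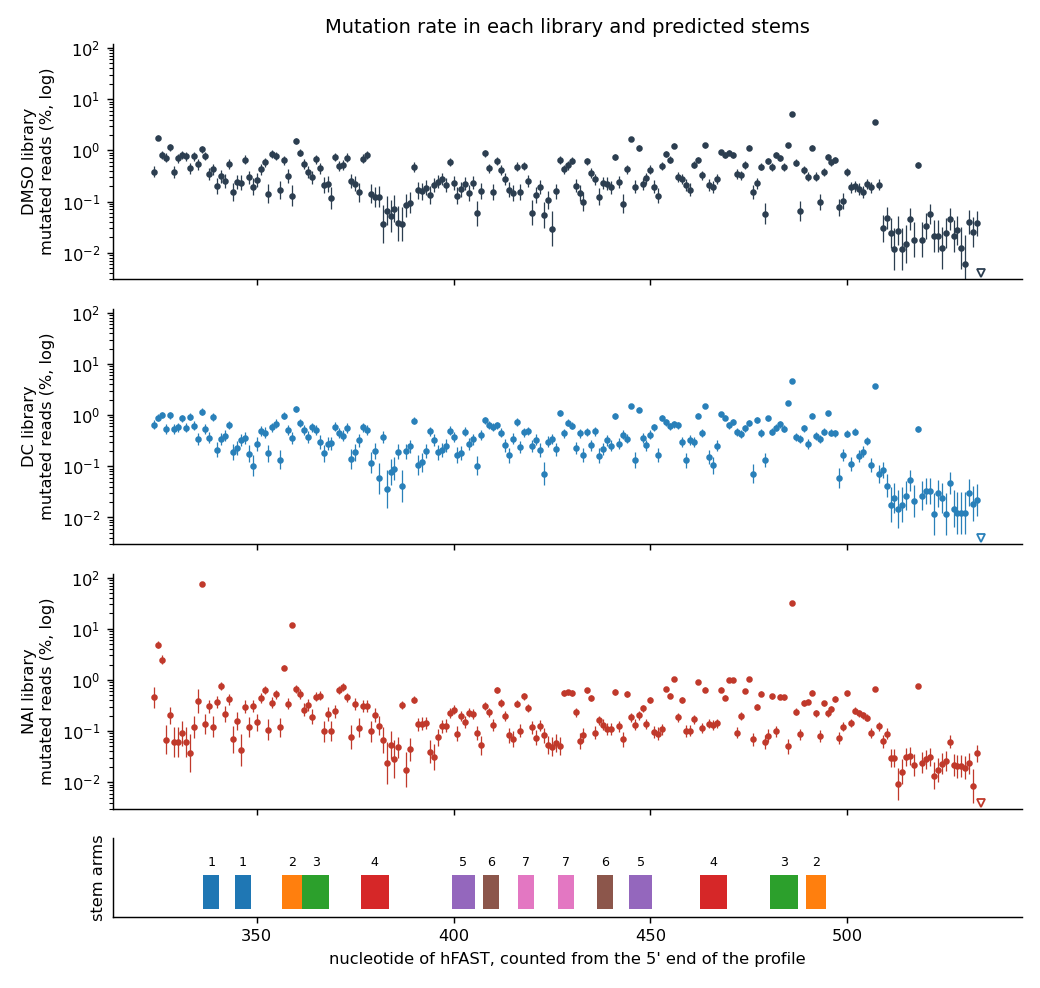
Mutated reads in percent (log scale, bars are 95% Wilson intervals) at each nucleotide in the DMSO, DC and NAI libraries, with the arms of the 7 stems below; open triangles are nucleotides with no mutated read. Nucleotides 336, 359 and 486 stand above 10% in NAI only, and rates drop in all 3 libraries from nucleotide 509 on.

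The denatured control against DMSO is a contrast that the choice of the stretch did not use directly, although both rates enter the deposited reactivity. By Fisher's exact test, adjusted over 547 nucleotides, DC was above DMSO at 51 of the 211 and below it at 18, against 21.9% and 9.69% of the whole table. The shares in the stretch, 24.2% and 8.53%, were near that background. The high-depth part had 41 of 149 higher and 13 lower, and the 5′ part 10 of 62 higher and 5 lower. Median DMSO depth was 24520 reads in the former and 13839 in the latter, and deeper nucleotides pass a test more easily. The remaining nucleotides, with a median DMSO depth near that of the 5′ part, had 69 of 314 higher and 35 lower. Base composition also differed, with a larger share of T and a smaller share of G in the high-depth part. What sets the difference between the parts was not tested. The median log2 ratio was 0.18 in the high-depth part, -0.13 in the 5′ part and 0.07 at the remaining nucleotides. With 1 library per treatment, each such test compares 2 libraries and not 2 conditions.

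The largest rise lay in the loop at the tip of the inner rod. At nucleotide 425, an A of the loop of stem 7, 0.0295% of DMSO reads (0.0135 to 0.0644%), 0.340% of DC reads (0.270 to 0.429%) and 0.0492% of NAI reads (0.0322 to 0.0751%) were mutated. DC stood above the interval of DMSO, and the log2 ratio of DC to DMSO was 3.42 (Fisher's exact test, adjusted p = 2.6e-13). That ratio rests on 6 mutated reads in DMSO and 71 in DC. Of the 6 loop nucleotides, all A or T, 3 (50%) were higher in DC than in DMSO and none lower. The share higher was 21.9% over the whole table and 38.8% at the T nucleotides of the stretch. Besides 425, the higher ones were the A at 424 (0.109% and 0.303%) and the T at 421 (0.135% and 0.331%). The loop as a whole had medians of 0.122% in DMSO, 0.259% in DC and 0.0665% in NAI. Each arm of stem 7 had the same share as its loop, with 2 of 4 nucleotides higher (50%). They include the A at 420, which closes the loop and went from 0.0602% to 0.253% (log2 2.03). In the loop of stem 1, the 4 nucleotides had DMSO rates of 0.156 to 0.548% and DC rates of 0.188 to 0.645%, and none of them passed.

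Rises also occurred at predicted pairs and in some joints. The T at 382, inside the 5′ arm of stem 4, had 0.0366% in DMSO (0.0156 to 0.0857%), 0.367% in DC (0.279 to 0.482%) and 0.0661% in NAI (0.0369 to 0.118%), a log2 ratio of DC to DMSO of 3.20 (Fisher's exact test, adjusted p = 2.8e-09). The T at 488, in the bulge of 2 nt between the 3′ arms of stems 2 and 3, went from 0.0652% to 0.339% (log2 2.35). At 386, the first nucleotide of the high-depth part, a T went from 0.0373% to 0.193% (log2 2.28), and the unpaired T at 443 from 0.0908% to 0.414% (log2 2.16). All 6 of the largest rises were at A or T. In the joint behind the inner rod, the A at 451 and the T at 453 also rose (0.195% to 0.576% and 0.495% to 0.877%).

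The 4 largest falls past the threshold were smaller than the 6 largest rises and lay at nucleotides unpaired in the stretch folded alone. Falls as a whole were not limited to such nucleotides, since 10 were at paired and 8 at unpaired ones. In whole hFAST, nucleotide 325 was in a predicted stem (102 to 105 with 325 to 328). The A at 508 had 0.215% in DMSO (0.170 to 0.271%), 0.0712% in DC (0.0479 to 0.106%) and 0.124% in NAI (0.101 to 0.152%), a log2 ratio of DC to DMSO of -1.57 (Fisher's exact test, adjusted p = 9.1e-06). The A at 476 went from 0.155% to 0.0718% (log2 -1.09), the G at 325 from 1.77% to 0.895% (log2 -0.98) and the C at 456 from 1.24% to 0.661% (log2 -0.90). In the unpaired run of 472 to 477, neighbours moved in opposite directions, since the C at 477 rose from 0.227% to 0.796% (log2 1.80).

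DC exceeded DMSO at 19 of the 49 T nucleotides (38.8%) and was below it at 4. With the unpaired run at the 3′ edge counted, the other bases were near or below the 21.9% of the whole table. The 64 A nucleotides had 14 higher (21.9%) and 3 lower, the 45 C nucleotides 9 higher (20.0%) and 7 lower, and the 53 G nucleotides 9 higher (17.0%) and 4 lower. At the remaining nucleotides the shares higher were 26.3% of T, 31.8% of A, 18.0% of C and 18.6% of G. Outside that run, the stretch had 7 of 19 paired A (36.8%) and 6 of 21 unpaired A (28.6%) higher, and 0 and 1 lower. T there had 9 of 25 paired (36.0%) and 10 of 18 unpaired (55.6%) higher, and 4 and 0 lower. Differences between bases were not tested. Without the unpaired run at the 3′ edge, the log2 ratio of DC to DMSO had a median of 0.35 at paired and 0.43 at unpaired A, and 0.43 and 0.46 at T. It was 0.04 and 0.00 at C, and -0.10 and 0.02 at G. At T the library labelled NAI was below DC at 37 of 49 nucleotides and above it at none, where 45.1% of the whole table was lower. T at the remaining nucleotides had 22 of 38 lower and 1 higher. This contrast was used to choose the stretch, so the counts are a description.

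**Figure D5:**
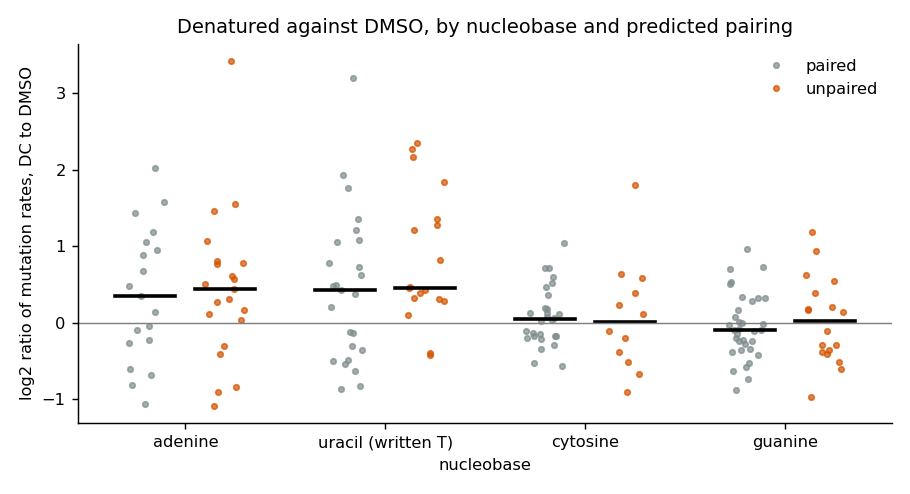
Log2 ratio of the mutation rates of DC to DMSO (y axis) at each nucleotide of the stretch outside the unpaired run at its 3′ edge, by nucleobase and by pairing in the fold of the stretch alone; black bars are medians. Medians lie at 0.35 to 0.46 for adenine and uracil and at -0.10 to 0.04 for cytosine and guanine, with little space between paired and unpaired.

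Over all bases, unpaired nucleotides had a median log2 ratio of DC to DMSO 0.19 above that of paired ones, against 0.15 at the remaining nucleotides with pairing from whole hFAST. Among A and T alone the difference was -0.09, and without the run at the 3′ edge it was 0.04. For NAI to DMSO the difference was 0.22 (remaining nucleotides 0.09), and it was -0.03 among A and T without that run. For NAI to DC it was 0.21 (remaining nucleotides 0.11), and it turned to -0.17 without that run. The sign of each difference therefore depended on which nucleotides were counted, and nucleotides along an RNA are not replicates. In levels, with the run at the 3′ edge counted, unpaired nucleotides were lower than paired ones in every library. Medians were 0.100% against 0.222% in NAI, 0.188% against 0.382% in DMSO and 0.256% against 0.445% in DC. Unpaired nucleotides were also poorer in G and C (34.3% against 58.5%). Without that run the order of the medians stayed the same over all bases, but it depended on the base. The median of unpaired C was then above that of paired C in every library, and that of unpaired T below that of paired T. Unpaired A was lower than paired A in NAI alone, and unpaired G was higher than paired G in NAI alone.

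The stretch ends in an unpaired run of 36 nt, of which the A and T nucleotides from 509 on had few mutations. It holds the hexamer AATAAA, shown in capitals where it first occurs.

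Nucleotides 499 to 534: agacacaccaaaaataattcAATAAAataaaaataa

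The hexamer starts at nucleotides 519 and 524, where the copies share 1 base, and another copy starting at 530 crosses the edge of the stretch. Only the strand of the transcript was searched. Of the 337 windows of 211 nt in hFAST, 24 (7.12%) held at least 1 full copy, and the variant ATTAAA occurred in none. A match describes letters and shows no use of a site.

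Nucleotides 509 to 534 (26 nt) had median rates of 0.0239% in NAI, 0.0241% in DMSO and 0.0227% in DC, at median depths of 74352, 33116 and 33758 reads. All 25 A and T nucleotides there were under 0.1% in each library, with highest values of 0.0886% in NAI, 0.0574% in DMSO and 0.0859% in DC. The single C, at 518, had 0.748%, 0.521% and 0.541%. Before nucleotide 509, the 88 A and T nucleotides of the stretch had medians of 0.104%, 0.182% and 0.254%. The first 10 nucleotides of the run (499 to 508) had 0.193%, 0.194% and 0.180%. At nucleotide 534 no mutated read was seen in any library, and the limit that this count allows was 0.00436% for NAI, 0.00970% for DMSO and 0.00958% for DC. The drop in rates was thus present without reagent. The sources used here do not say where the primers for hFAST anneal, and their part in the low rates was not tested.

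Across the 211 nucleotides, Spearman's rho of the mutation rates was 0.867 between DC and DMSO, 0.733 between NAI and DMSO and 0.632 between NAI and DC. Without nucleotides 509 to 534 it was 0.809, 0.623 and 0.476 over 185 nucleotides. At the 314 remaining nucleotides it was 0.777, 0.487 and 0.327. These nucleotides share libraries, sequence context and neighbouring reads, so the values are given as a description.

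The authors' deposited reactivity, which subtracts the DMSO from the NAI rate, divides by DC and scales the result, had values at 209 of the 211 nucleotides. Its median was -0.43, and 139 values were negative. By the deposited standard errors, 19 were more than 2 standard errors above 0 and 84 more than 2 below. The whole table was mostly negative too, with 363 of 519 values below 0. There 35 values were more than 2 standard errors above 0 and 209 more than 2 below. The arms of the inner rod spanned medians from 0.03 in the 5′ arm of stem 5 to -1.17 in its 3′ arm, although both arms belong to the same pairs. The loop of stem 7 had -0.42 and the run at the 3′ edge 0.27. In that run 15 of 35 values were negative, 4 were more than 2 standard errors above 0 and 3 more than 2 below. Its median rates were only 0.030% in NAI, 0.032% in DMSO and 0.030% in DC, so its reactivity is a ratio of very low rates. At the remaining nucleotides the median of 309 values was -0.57.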

How the data were processed

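The 3 SHAPE-MaP libraries of H9 cells were analysed, and the series' 22 RNA-seq samples are not analysed here. Software named in the submitters' processing notes was Bowtie2 2.1.0 and bcl2fastq 2.17.1.14, with hg19 as the build. The mutation counter is not given in the sources. Depths as deposited are read counts per nucleotide without normalization, and each deposited mutation rate is the fraction of them that were mutated. The authors deposited reactivity as a score with a standard error, whose scaling constant is not explained. Mutated reads were recovered as rate times depth, within 0.0348 of a whole number throughout.

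Depth over the stretch was 3409 to 74641 reads (NAI), 13471 to 33276 (DMSO) and 13844 to 33917 (DC), and 95% Wilson intervals cover counting error only. A count of 0 was taken to allow 3 counts. Fisher's exact test (two-sided) compared mutated and unmutated reads at every nucleotide of the table, with Benjamini-Hochberg adjustment over all of them within each of 3 comparisons and a threshold of 0.05. Log2 ratios used 0.5 added reads. Folds were made with ViennaRNA 2.7.2 at 37 °C without reactivities. Statistics used scipy 1.17.1, numpy 2.4.6 and pandas 2.3.3 under Python 3.11.15, and were tested on simulated data.

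The nucleotides named are the 8 highest NAI and 5 highest DMSO rates, the 6 largest and 4 smallest ratios of DC to DMSO past the threshold, the edges, the NAI depth steps of at least 2-fold, every stem and hairpin loop and the unpaired runs of at least 6 nt. Further nucleotides were named after their values were seen (421, 424, 451, 453, 477, 518). The stretch and these rules were chosen with earlier results of these data known. Alternatives were Bonferroni correction, a 2-fold minimum, 5000 reads, centring, 1 added read, other folds and other subsets of nucleotides. The genome position and exons of hFAST are not used here.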

Additional observations from a re-analysis of the deposited data

How the results depend on the processing

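Some counts of called nucleotides changed by more than 1.5 times under other rules, and only those are given here. With Bonferroni correction DC was higher than DMSO at 27 nucleotides of the stretch and lower at 5. NAI was lower than DMSO at 46 and higher than DC at 13. These were 12.8%, 2.37%, 21.8% and 6.16% of the stretch, against 11.2%, 3.11%, 20.7% and 5.68% over whole hFAST. With a 2-fold minimum, DC was higher than DMSO at 28 (13.3%, whole hFAST 11%) and lower at 2 (0.95%, whole hFAST 1.83%). NAI was higher than DMSO at 8 (3.79%, whole hFAST 3.85%). NAI was higher than DC at 9 (4.3%, whole hFAST 4.4%) and lower at 65 (30.8%, whole hFAST 35.3%). After centring, at 2-fold and with no test, DC was higher than DMSO at 23 and lower at 6. NAI was then higher than DMSO at 29 and lower at 33, and lower than DC at 44. These were 10.9%, 2.84%, 13.7%, 15.6% and 20.85% of the stretch. Over whole hFAST (525 nucleotides) they were 9.9%, 3.62%, 11.8%, 20.6% and 25.1%. The 7 stems became 3 without dangling-end energies, 4 with 10 nt more on each side, 4 in whole hFAST, 2 in the high-depth part folded alone and 1 with the Andronescu energy parameters.

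Differences between unpaired and paired nucleotides counted as moved beyond 0.1 on the log2 scale. For DC to DMSO the difference (0.19) was 0.082 in the high-depth part, -0.093 among A and T, 0.29 without the run at the 3′ edge and 0.043 among A and T without that run. For NAI to DMSO (0.22) it was -0.033 in that last set. For NAI to DC (0.21) it was 0.36 in the high-depth part, 0.31 among A and T, -0.17 without the run and -0.42 among A and T without it. The settings without that run were chosen after seeing the data. The cause was not tested. In 30 other settings of these results the value stayed within those bounds. Limits of 5000 reads left 207 members. No paired analysis was possible because each treatment has 1 library and the columns carry no replicate numbers.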
